A study of Mus musculus with 6 samples.

Results

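Among the 55487 gene identifiers counted in mouse ovary RNA, 300 carry a GENCODE M21 symbol that begins with Rpl or Rps and contains -ps, the mark of a named pseudogene of a ribosomal protein gene. They were chosen by symbol, with earlier results of these data known. The annotation types 287 of them as processed pseudogenes, 7 as transcribed processed pseudogenes and 6 as protein coding (Rps12-ps3, Rpl10-ps3, Rpl9-ps6, Rpl36-ps4, Rpl36a-ps1 and Rpl9-ps1), so for those 6 the annotated type goes against the symbol. The parent gene of each was taken from its symbol, and 299 of the 300 had such a gene in the count table. There were 61 parents, 60 of them protein coding. Rpl31 and Rps12 each had 24 named copies, the most of any parent.

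Ribosomal proteins are the protein part of the small and large ribosomal subunits, and their mRNAs are short, abundant and made in every cell. Processed pseudogenes arise when such an mRNA is copied back into DNA and inserted elsewhere in the genome, so they lack the parent's introns and usually its promoter. Because many are nearly identical to the spliced mRNA of the parent, short reads from either can match both, and a count assigned to a pseudogene can hold reads from its parent.

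The libraries were total RNA depleted of ribosomal RNA, from 3 wildtype ovaries and 3 GalT-/- ovaries (GalTKO) taken at postnatal day 49. Galt is the gene for an enzyme of galactose breakdown, galactose-1-phosphate uridylyltransferase, and its loss causes classic galactosemia. Both genotypes have the same labelled strain, cbl/6-ola/129, and both were fed 2.5% galactose from weaning for 4 weeks, so the comparison is between genotypes on that diet. The labels do not say how the GalT allele was made, whether ovaries of a group came from different animals or litters, or how the mixed strain background was shared between groups. The p-values therefore measure the spread between these samples only, and genotype and any difference in background or litter cannot be told apart.

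Total counts ran from 19232486 to 25729564 per library, and every pair of replicates differed by more than counting noise. Galt had 17.8, 16.1 and 17.4 CPM (counts scaled to the size of the library) in the wildtype libraries and 0.155, 0.259 and 0 in the GalTKO libraries, which matches the labels. Granulosa markers (Foxl2, Amh, Fshr and Inha) summed to 2733 to 3270 CPM in wildtype and 2870 to 3270 CPM in GalTKO, a sum held mostly by Inha. Of these 4 markers Amh was called higher, from 131 to 173 CPM in wildtype to 250 to 292 CPM in GalTKO. Theca and luteal markers summed to 6887 to 10867 CPM in wildtype and 3722 to 6527 CPM in GalTKO, with Star, which moves cholesterol into mitochondria, lower in GalTKO and the only 1 of the 4 to pass the test. That sum was held mostly by Cyp11a1, at 4436 to 6847 CPM in wildtype and 2862 to 4294 CPM in GalTKO. Cyp17a1 went the other way on average (log2 fold change 0.92, edgeR adjusted p = 0.757). It had 119 to 132 CPM in wildtype and 7.29 to 400 CPM in GalTKO. The macrophage list summed to 83.7 to 107 CPM in wildtype and 58.3 to 68.3 CPM in GalTKO, and 1 of its 3 markers, Csf1r, was called lower. The adipose list summed to 19.8 to 22.6 CPM in wildtype and 38.9 to 53.1 CPM in GalTKO, with Plin1 called higher and Adipoq at or near 0 in every library. Ribosomal protein mRNA is made in all these cell types, and the part of these shifts in the values below was not tested. In whole ovary RNA, fewer cells of a type and less RNA per cell cannot be told apart.

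Of the 300 pseudogenes, 111 had 0 counts in all 6 libraries, 125 had some counts but too few to be tested, and 64 were tested together with all other genes, 16957 in all. The filter on low counts used for this keeps genes with enough counts in at least 3 libraries. A pseudogene that is high in a single genotype can pass through that genotype alone. With edgeR's quasi-likelihood test and a Benjamini-Hochberg adjusted p under 0.05, 6 of the 64 tested pseudogenes were called, which is 9.38%, beside 2.55% of all genes tested. Rps2-ps10 and Rps26-ps1 were higher in GalTKO. Rps15a-ps7, Rps15a-ps6, Rps15a-ps5 and Rpl15-ps2 were lower. Among all genes, 1.13% were called higher and 1.43% lower.

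Read sequence sets how far a pseudogene's count can be told from its parent's, so the bases that separate the called pseudogenes from their parents are shown first. Sequences are from GENCODE M21 transcripts on GRCm38, read 5′ to 3′ on the transcript strand, and positions are counted from 1 at the first base of the parent's start codon. Capitals mark a base that differs between the parent and a pseudogene shown with it. Rps15a-ps7, Rps15a-ps6 and Rps15a-ps5 share 1 substitution from Rps15a, T150C, and each has others of its own. These 40 bases cover coding positions 131 to 170 of Rps15a (chr7:118114828-118115111, minus strand, with an intron inside) and the matching bases of 5 copies: Rps15a-ps7 at chr2:152185514-152185553 (minus strand), Rps15a-ps6 at chr11:6172867-6172906 (minus strand), Rps15a-ps5 at chr5:105797544-105797583 (minus strand), Rps15a-ps4 at chr4:132220268-132220307 (minus strand) and Rps15a-ps3 at chr4:150847245-150847284 (plus strand).
Rps15a: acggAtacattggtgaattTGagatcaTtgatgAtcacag
Rps15a-ps7: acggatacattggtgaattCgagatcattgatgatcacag
Rps15a-ps6: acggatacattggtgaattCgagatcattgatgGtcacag
Rps15a-ps5: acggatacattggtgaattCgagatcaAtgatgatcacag
Rps15a-ps4: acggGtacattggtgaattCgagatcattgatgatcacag
Rps15a-ps3: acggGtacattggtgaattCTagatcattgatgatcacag

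The base at position 150 was not particular to the 3 called copies. Rps15a-ps1, Rps15a-ps2, Rps15a-ps3 and Rps15a-ps4 also carry T150C, while Rps15a-ps8 has the parent's base. Of the 8 copies of Rps15a without a -ps symbol that cover the position, 6 carry it. The copies differ in how much exact sequence surrounds it. In Rps15a-ps7 T150C is flanked by 266 bases without a further difference, counting both sides, against 154 in Rps15a-ps4, 74 in Rps15a-ps5 and 45 in Rps15a-ps6. Its other differences are C7G, G8A, C362G and a deletion of 1 base. Rps15a-ps6 also differs by C7T, C117T, A164G and T301C, and Rps15a-ps5 by C31T, A82T, T158A and A254G.

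**Figure D1:**
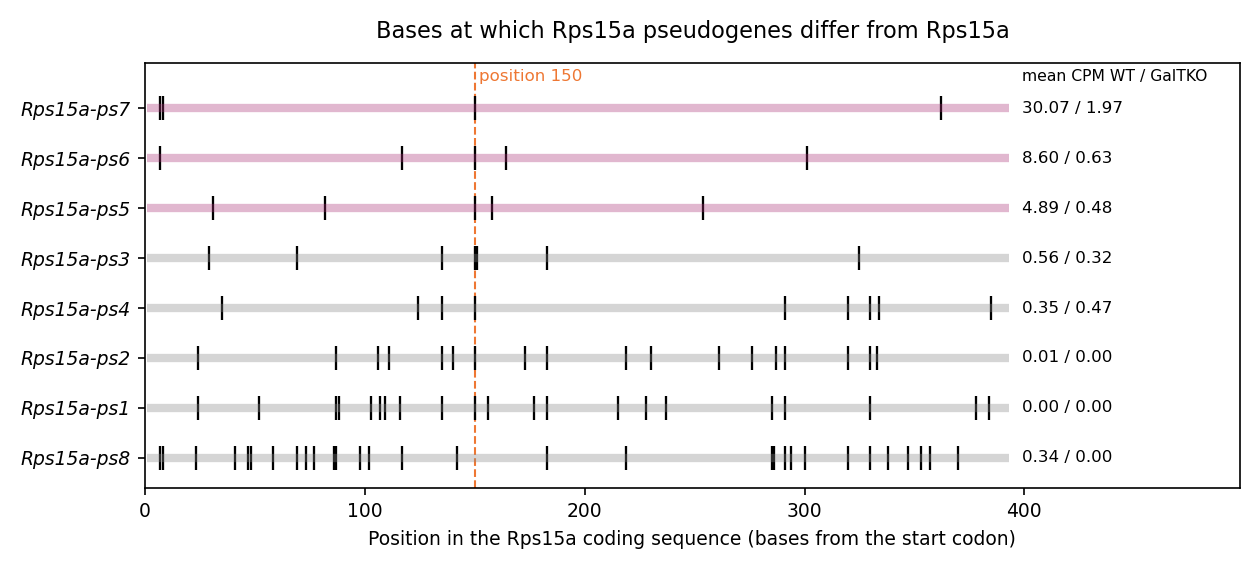
Each row is a named Rps15a pseudogene, each mark is a base that differs from the parent, a missing base is not drawn, rows in pink were called, and the horizontal axis is the position in the Rps15a coding sequence in bases from the start codon. The dashed line marks position 150, and mean CPM in wildtype and in GalTKO (n = 3 each) stands at the right. The copies with the highest wildtype levels, Rps15a-ps7, Rps15a-ps6 and Rps15a-ps5, have few marks. Rps15a-ps3 and Rps15a-ps4 have only a few more but are low in both genotypes, as is Rps15a-ps8, which has 30 differences.

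Rps26-ps1 differs from the coding sequence of Rps26 at 2 bases, C30T and G270A. Neither changes an amino acid, and the reading frame of the copy is open from start to stop. Each of the 2 bases was also in 3 of the 4 unnamed copies of Rps26 aligned there. The windows below cover coding positions 16 to 45 (Rps26 at chr10:128626199-128626228 and Rps26-ps1 at chr8:107439518-107439547, both on the minus strand) and then 256 to 285 (Rps26 at chr10:128625234-128625263 and Rps26-ps1 at chr8:107439278-107439307).
Rps26: agaaacaacggtcgCgccaaaaagggccgc
Rps26-ps1: agaaacaacggtcgTgccaaaaagggccgc
Rps26: aatcgatcccgcgaGgcccggaaggaccga
Rps26-ps1: aatcgatcccgcgaAgcccggaaggaccga

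The alignment of Rpl15-ps2 did not cover the whole Rpl15 coding sequence without a gap. Over the aligned bases it differs from that sequence at 8 bases. Of these, C354G was in none of the 4 other named copies and none of the 22 unnamed copies that cover it. G323A was in 3 of the 22 unnamed copies. Both lie in coding positions 316 to 360, shown for Rpl15 (chr14:18269266-18269310, minus strand) and Rpl15-ps2 (chr9:72061250-72061294, plus strand).
Rpl15: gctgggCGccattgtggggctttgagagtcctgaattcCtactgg
Rpl15-ps2: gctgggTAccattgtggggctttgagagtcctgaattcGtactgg

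Over the aligned bases Rps2-ps10 differs from Rps2 at 5 coding positions, 60, 204, 444, 453 and 756. Its alignment did not cover the whole Rps2 coding sequence without a gap. At positions 60, 204 and 756 most other named copies have the same base as Rps2-ps10, whereas at 444 and 453 only Rps2-ps13 does, of 10 other named copies aligned. Those 2 positions are shown in Rps2 (chr17:24721027-24721056, plus strand) and in Rps2-ps13 (chrX:52899021-52899050, plus strand).
Rps2: aggaggttgcCactgccatCcgaggggcca
Rps2-ps13: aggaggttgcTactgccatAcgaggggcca

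Rps2-ps10 had the smallest p of the called pseudogenes. It lies at chr18:61259008-61259972 on the minus strand (GRCm38), in an intron of Pde6a on the opposite strand, and is annotated as transcribed. Its level was 2.04, 1.82 and 1.65 CPM in wildtype and 83.3, 92.5 and 79.7 CPM in GalTKO. The groups did not overlap and the lowest GalTKO library was far above the highest wildtype library. On the log2 scale the change was 5.53 ± 0.13 (SE, n = 3 per genotype), with an adjusted p of 3.64e-07 by edgeR's quasi-likelihood test. Rps2, its parent, encodes a protein of the small subunit. It had 728, 694 and 815 CPM in wildtype and 583, 601 and 519 CPM in GalTKO, a log2 fold change of -0.39 ± 0.11 that did not pass the test (edgeR adjusted p = 0.108). For every 100 counts of Rps2, Rps2-ps10 had 0.247 in wildtype and 14.96 in GalTKO.

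The other named Rps2 copies stayed low. Rps2-ps13, which shares the bases at 444 and 453, had 0, 4 and 1 counts in wildtype and 8, 21 and 6 in GalTKO, too few to be tested, although the GalTKO counts were all higher. Rps2-ps6, the only other Rps2 copy tested, had 0.84, 0.97 and 0.61 CPM in wildtype and 0.58, 0.30 and 0.73 CPM in GalTKO, with overlapping groups. The remaining 8 named copies were at or below 0.35 CPM in every library. The 68 unnamed copies of Rps2 together had a mean of 7.95 CPM in wildtype and 11.3 CPM in GalTKO, without overlap (exact permutation p = 0.1).

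Rps26-ps1 showed the largest gain in counts. It is annotated as transcribed and lies at chr8:107439131-107439579 on the minus strand, in an intron of Wwp2 on the opposite strand. It had 5.44, 3.64 and 4.89 CPM in wildtype and 124, 108 and 125 CPM in GalTKO. The groups were far apart. The change was 4.67 ± 0.16 on the log2 scale (SE, n = 3 per genotype, edgeR adjusted p = 3.09e-06). Rps26, which encodes a protein of the small subunit at the mRNA exit channel, had 581, 568 and 612 CPM in wildtype and 508, 444 and 496 CPM in GalTKO. Every GalTKO value of the parent was below every wildtype value, but the log2 fold change of -0.28 ± 0.09 did not pass the test (edgeR adjusted p = 0.177). Rps26-ps1 had 0.936, 0.641 and 0.800 counts per 100 of Rps26 in the wildtype libraries and 24.3, 24.4 and 25.2 in the GalTKO libraries.

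The sum of Rps26 and its pseudogene moved less than either alone. The mean of the parent was 104 CPM lower in GalTKO and that of Rps26-ps1 was 114 CPM higher. Their sum was 591 ± 23.0 CPM in wildtype and 602 ± 43.1 CPM in GalTKO (SD, n = 3 each), with overlapping groups and an exact two-sided permutation p of 0.8. For Rps2 and its 11 named copies the parent was 178 CPM lower, the copies were 83.6 CPM higher, and the sum was 749 ± 61.7 CPM in wildtype and 654 ± 49.2 CPM in GalTKO. Those sums did not overlap, with an exact two-sided permutation p of 0.1, the smallest that 3 against 3 libraries allow. With 68 unnamed copies of Rps2 added, the sums overlapped narrowly, at 706 to 825 CPM in wildtype and 611 to 707 CPM in GalTKO (exact permutation p = 0.2). The mean difference changed little, from -94.9 to -91.5 CPM. With their unnamed copies added, the Rps15a and Rpl15 sums did not overlap (exact permutation p = 0.1 each).

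**Figure D2:**
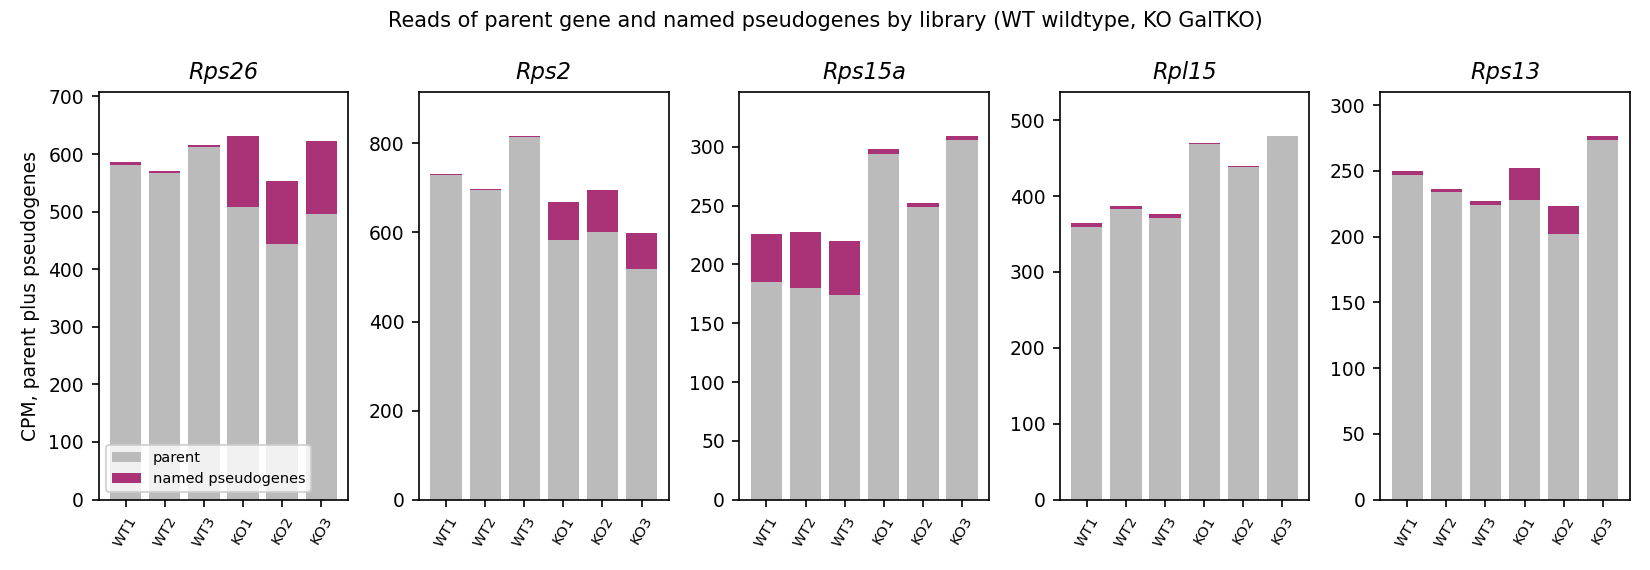
Stacked bars give CPM of the parent gene (grey) and of its named pseudogenes together (purple) in each of the 3 wildtype (WT) and 3 GalTKO (KO) libraries, for families that hold a called pseudogene and for Rps13. The Rps26 bars reach a like height in both genotypes (571 to 616 CPM in wildtype and 553 to 632 CPM in GalTKO) while the purple share grows in GalTKO, and the Rps15a bars lose their purple share and are taller in GalTKO.

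The 3 called Rps15a copies were lower in GalTKO, and Rps15a itself was higher. Rps15a-ps7 (chr2:152185291-152185682, minus strand, in no other annotated gene) had 27.5, 32.9 and 29.8 CPM in wildtype and 2.09, 2.16 and 1.67 CPM in GalTKO. This was the highest wildtype level of any pseudogene called, and the groups did not overlap (log2 fold change -3.92 ± 0.15, SE, n = 3 per genotype, edgeR adjusted p = 8.43e-06). Rps15a-ps6 (chr11:6172644-6173036, minus strand, in an intron of Nudcd3 on the same strand) had 7.16, 8.46 and 10.2 CPM in wildtype and 0.890, 0.431 and 0.573 CPM in GalTKO. Its log2 fold change was -3.74 ± 0.30, with an edgeR adjusted p of 0.000504. Rps15a-ps5 (chr5:105797321-105797713, minus strand, in an intron of Lrrc8d on the opposite strand) had 4.40, 4.86 and 5.41 CPM in wildtype and 0.503, 0.259 and 0.677 CPM in GalTKO. Its groups did not overlap either, and the log2 fold change was -3.35 ± 0.33 (edgeR adjusted p = 0.0016).

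Rps15a, a protein of the small subunit, had 185, 180 and 174 CPM in wildtype and 294, 249 and 306 CPM in GalTKO. It rose by 0.65 ± 0.10 on the log2 scale (edgeR adjusted p = 0.0136). That call was lost when any of the wildtype libraries was left out, with adjusted p values of 0.0648, 0.0816 and 0.0645 without wildtype replicates 1, 2 and 3. Over all alternatives the adjusted p for Rps15a ran from 1.81e-06 to 0.0816. Per 100 counts of Rps15a, Rps15a-ps7 had 14.9, 18.3 and 17.1 counts in the wildtype libraries and 0.711, 0.866 and 0.545 in the GalTKO libraries. The 8 named copies together were 41.0 CPM lower in GalTKO and the parent was 103 CPM higher, so the sum of both was higher in GalTKO, at 287 ± 30.2 CPM against 225 ± 3.71 CPM (SD, n = 3 each). The sums did not overlap, with an exact permutation p of 0.1.

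The remaining 5 Rps15a copies were low in both genotypes. Rps15a-ps3, which carries T150C with 6 other differences, had 0.48, 0.55 and 0.65 CPM in wildtype and 0.27, 0.26 and 0.42 CPM in GalTKO (log2 fold change -0.84, edgeR adjusted p = 0.34). The groups did not overlap, but the change did not pass the test. Rps15a-ps4 had 0.40, 0.30 and 0.35 CPM in wildtype and 0.35, 0.43 and 0.62 CPM in GalTKO and was not tested. Rps15a-ps8, the copy with the parent's base at 150, had 16, 6 and 3 counts in wildtype and 0 in every GalTKO library, which is at least 7.93-fold higher in wildtype when GalTKO is set to a floor of 3 counts over the group. It was not tested with the filter on low counts, and edgeR called it lower in GalTKO without that filter (adjusted p = 0.0111). Rps15a-ps1 had no counts in any library and Rps15a-ps2 was at or below 0.04 CPM.

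Rpl15-ps2 (chr9:72060937-72061549, plus strand, in an intron of Tcf12 on the opposite strand) had 5.48, 4.27 and 3.72 CPM in wildtype and 0, 0.173 and 0.208 CPM in GalTKO. The groups did not overlap, and its 324 wildtype counts stood against 8 in GalTKO. Its log2 fold change, -5.18 ± 0.57 (SE, n = 3 per genotype), passed the test (edgeR adjusted p = 0.0031). Without GalTKO replicate 1, the library with 0 counts, the log2 fold change was -4.53 (edgeR adjusted p = 0.00207), and limma gave -5.97 with all libraries. The adjusted p over all alternatives was at most 0.0230. Scaled to library size, the ratio of wildtype to GalTKO counts was 38.5, with a 95% exact interval of 19.3 to 90.0 that covers counting error only. Rpl15, a protein of the large subunit, had 359, 383 and 372 CPM in wildtype and 469, 439 and 479 CPM in GalTKO. All its GalTKO values were above all wildtype values, yet the log2 fold change of 0.32 ± 0.08 did not pass the test (edgeR adjusted p = 0.105). Rpl15 and its 5 named copies summed to 376 ± 11.2 CPM in wildtype and 463 ± 20.9 CPM in GalTKO (SD, n = 3 each). Those sums did not overlap (exact permutation p = 0.1). Rpl15-ps3, with no mismatch to the Rpl15 transcript over the aligned bases, had 0.36, 0.51 and 0.65 CPM in wildtype and 0.43, 0.26 and 0.21 CPM in GalTKO, and these overlap.

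**Figure D3:**
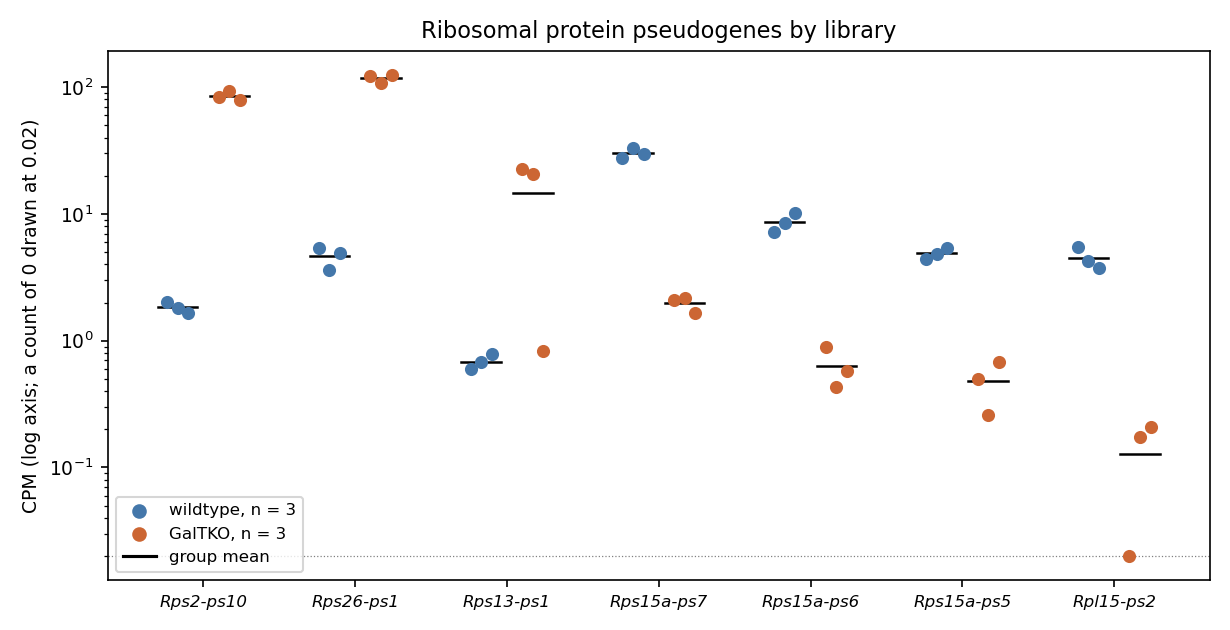
Points are CPM in single libraries on a log axis (a count of 0 is drawn at 0.02), for the 6 called pseudogenes and Rps13-ps1, with wildtype in blue, GalTKO in orange (n = 3 each) and a bar at each group mean. The genotypes stand apart for the called pseudogenes, from Rps2-ps10 at 1.65 to 2.04 CPM against 79.7 to 92.5 CPM to Rpl15-ps2 at 3.72 to 5.48 CPM against 0 to 0.208 CPM. Rps13-ps1 has 2 GalTKO libraries far above wildtype and 1 near it, at 0.833 CPM.

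Of the 5 genes whose introns hold a called pseudogene, none was called. Pde6a, a photoreceptor phosphodiesterase gene, had 23 to 26 counts per genotype and was too low to be tested. The log2 fold changes of the other 4 ran from -0.17 for Tcf12 (edgeR adjusted p = 0.381) to 0.03 for Wwp2, a ubiquitin ligase gene (edgeR adjusted p = 0.941). Tcf12, the host of Rpl15-ps2, had all GalTKO values (179 to 200 CPM) below all wildtype values (206 to 230 CPM), in the direction of the pseudogene but without passing the test. Csnk2a1, a protein kinase gene beside Rps15a-ps7, did so too, at 179 to 191 CPM against 195 to 208 CPM (log2 fold change -0.12, edgeR adjusted p = 0.457). Of the nearest tested genes on either side, the only one called was Camk2b, a subunit of a calcium and calmodulin dependent kinase. It lies 106282 bases from Rps15a-ps6, rose by 1.88 on the log2 scale (edgeR adjusted p = 0.0214) and so moved opposite to the pseudogene. The called pseudogenes lie on 6 chromosomes. None is on chromosome 4, which holds Galt, and of the 3 named pseudogenes within 20 Mb of Galt none was tested.

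Rps13-ps1 (chr8:87047689-87048226, plus strand) differed between libraries of the same genotype. It had 0.600, 0.677 and 0.780 CPM in wildtype, with 15, 16 and 18 counts. In GalTKO it had 22.7, 20.6 and 0.833 CPM, with 587, 477 and 16 counts. GalTKO replicates 1 and 2 were far above wildtype, and replicate 3 was near it. The log2 fold change of 4.42 ± 1.21 did not pass edgeR's test (adjusted p = 0.158). Without GalTKO replicate 3 it was 4.97 with an edgeR adjusted p of 4.57e-05, and DESeq2 called it with all libraries (adjusted p = 0.00306), within a range of adjusted p from 4.57e-05 to 0.389 over all alternatives. DESeq2 called 9 of the 64 pseudogenes and 6.16% of all genes. Rps13, another small subunit protein, had 247, 234 and 224 CPM in wildtype and 228, 202 and 273 CPM in GalTKO, with a log2 fold change of 0.00 (edgeR adjusted p = 0.989). The library with the low Rps13-ps1 value had the highest Rps13 value of its genotype. That library was also the highest of its genotype for many other parents, among them Rps12, Rpl17 and Rpl19, though not for Rps2 or Rplp0. The sum of Rps13 and its 7 named copies was 238 ± 11.5 CPM in wildtype and 251 ± 26.9 CPM in GalTKO (SD, n = 3 each, exact permutation p = 0.6).

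Rps13-ps1 differs from Rps13 at 2 coding bases, T411C and A429G, with no amino acid change and an open reading frame. Neither base is particular to it. T411C was in 4 of the 6 other named copies and in all 5 unnamed copies aligned there. A429G was in 2 of the 5 other named copies aligned there, Rps13-ps7 and Rps13-ps6, and in 3 of 5 unnamed copies. T411C is shared with Rps13-ps4, so the 40 bases from coding position 401 to 440 are given for Rps13 (chr7:116331566-116332400, minus strand, with an intron inside), Rps13-ps1 (chr8:87048120-87048159, plus strand) and Rps13-ps4 (chr8:119602186-119602225, minus strand).
Rps13: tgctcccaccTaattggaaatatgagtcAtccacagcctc
Rps13-ps1: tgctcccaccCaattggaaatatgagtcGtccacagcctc
Rps13-ps4: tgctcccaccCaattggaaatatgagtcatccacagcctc

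Rps13-ps4 had 0.28, 0.34 and 0.48 CPM in wildtype and 0.54, 0.26 and 0.57 CPM in GalTKO, with no library standing apart. Rps13-ps2, which has no mismatch to the parent over the aligned bases, had 2.16, 1.69 and 1.299 CPM in wildtype and 0.81, 0.65 and 2.24 CPM in GalTKO. There GalTKO replicate 3 was the highest of its genotype, as it was for many parents, where it was the lowest for Rps13-ps1.

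In most tested pseudogenes the change was close to that of the parent. The log2 fold change of a pseudogene minus that of its parent had a median of 0.04 over the 64 tested, with quartiles of -0.14 and 0.21, and 45 of the 64 were within 0.5. The log2 fold changes of all 16957 genes had quartiles of -0.14 and 0.20, so such closeness does not show that a copy follows its parent. In 11 of the 64 tested pseudogenes the difference to the parent was at least 1 in size. It was positive for Rps2-ps10, Rps26-ps1, Rps13-ps1 and Rpl5-ps2. It was negative for Rps15a-ps7, Rps15a-ps6, Rps15a-ps5, Rps15a-ps3, Rpl15-ps2, Rpl15-ps3 and Rpl19-ps3. The largest differences were 5.93 for Rps2-ps10 and -5.49 for Rpl15-ps2. Of these 11, 5 were not called, among them Rpl19-ps3 with a log2 fold change of -0.92 ± 0.43 (edgeR adjusted p = 0.321). Without regard to a parent, the log2 fold change was at least 1 in size in 14.1% of the 64. That share was 14.8% of all other processed pseudogenes tested and 5.53% of all genes.

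**Figure D4:**
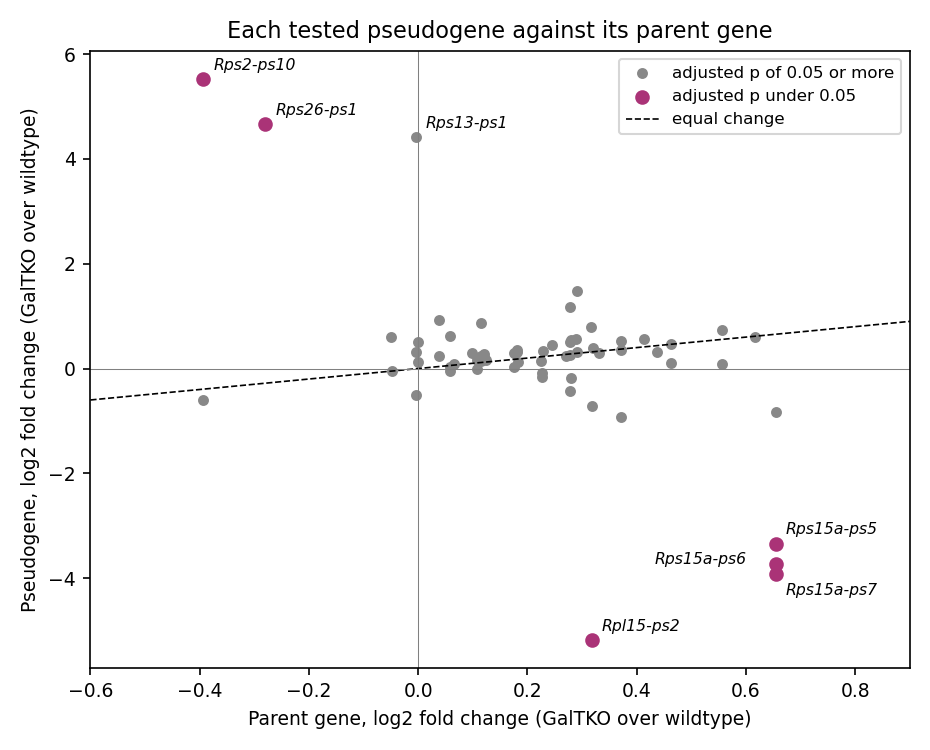
Each point is a tested pseudogene, with the log2 fold change (GalTKO over wildtype) of its parent on the horizontal axis and its own on the vertical axis, and called pseudogenes in purple. The dashed line marks equal change. Most points lie near the line, and the named ones, from Rps2-ps10 at 5.53 to Rpl15-ps2 at -5.18, lie far above or below it although their parents lie between -0.39 and 0.65.

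Over the 64 tested pseudogenes the median log2 fold change was 0.27, with 48 positive and 16 negative, beside a median of 0.02 over all 16957 genes, of which 9061 were positive. Without the 6 called it was 0.28, with 46 of 58 positive. The parents leaned the same way, with a median of 0.19 and 52 of 60 positive. So did the tested unnamed copies of ribosomal protein genes, with a median of 0.22 and 74 of 99 positive. The lean was not particular to ribosomal protein copies. All other processed pseudogenes, unnamed copies included, had a median of 0.20 with 364 of 542 positive. Named processed pseudogenes of other genes had 0.18 with 49 of 78 positive. An unadjusted edgeR p under 0.05 was found for 16 of the 64 pseudogenes, or 25%, and for 17.1% of all genes. Without the 6 called it was 10 of 58, or 17.2%, near the share of all genes. For the parents it was 40%, and for the tested unnamed copies 25.3%. The 3 values of a genotype were all above or all below those of the other in 23 of the 64, or 35.9%, and in 23.7% of all genes. That held for 17 of the 58 not called, or 29.3%, for 35% of the parents and for 34.3% of the tested unnamed copies. A pseudogene and a parent that can share reads are not independent measurements, and these figures describe the tested genes only.

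Of the 60 protein-coding parents, all were tested and 3 were called, all higher in GalTKO, which is 5% beside 2.55% of all genes. Besides Rps15a these were Rpl26 and Rplp1. Rplp1, an acidic protein of the ribosomal stalk, had 331, 299 and 321 CPM in wildtype and 616, 534 and 648 CPM in GalTKO (log2 fold change 0.92 ± 0.10, edgeR adjusted p = 0.00342). Rpl26, a large subunit protein, had 20.4, 20.6 and 18.3 CPM in wildtype and 330, 279 and 369 CPM in GalTKO. The 6 named copies of Rpl26 and the named copy of Rplp1 had too few counts to be tested. In the wider list of 82 cytosolic ribosomal protein genes, 80 were tested, the same 3 were called, 71 changes were positive and the median log2 fold change was 0.18.

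Besides Rps13-ps1, the uncalled pseudogenes with the highest mean levels included 5 with log2 fold changes between 0.04 and 0.31. Rps23-ps1, a copy of the gene for a protein of the decoding centre, had 13.7, 17.4 and 14.3 CPM in wildtype and 17.7, 16.2 and 22.1 CPM in GalTKO. The groups overlapped (log2 fold change 0.30 ± 0.16, edgeR adjusted p = 0.38). Rps6-ps4, a copy of the gene for the small subunit protein phosphorylated by S6 kinase, had 13.5, 13.6 and 12.99 CPM in wildtype and 17.997, 15.4 and 16.3 CPM in GalTKO. All GalTKO values were higher, without passing the test (log2 fold change 0.31 ± 0.11, edgeR adjusted p = 0.219). Rpsa-ps10 had 13.2, 12.1 and 11.7 CPM in wildtype and 12.97, 12.94 and 12.08 CPM in GalTKO, nearly the same in all 6 libraries. Rpl3-ps1, a copy of the gene for a protein near the peptidyl transferase centre, had 9.60, 9.52 and 9.40 CPM in wildtype and 11.6, 11.4 and 10.7 CPM in GalTKO (log2 fold change 0.24 ± 0.12, edgeR adjusted p = 0.357). Rps16-ps2 had 8.68, 6.43 and 8.10 CPM in wildtype and 8.63, 8.196 and 9.21 CPM in GalTKO, and its groups overlapped.

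Rpl38-ps2 and Rpl10a-ps1, also among the highest levels, had larger log2 fold changes. Rpl38-ps2 had 12.1, 15.6 and 12.95 CPM in wildtype and 20.3, 18.6 and 20.9 CPM in GalTKO, and the groups did not overlap. Its log2 fold change was 0.56 ± 0.13 (edgeR adjusted p = 0.0714), beside 0.41 for Rpl38. DESeq2 gave an adjusted p of 0.0119 and edgeR with no filter on low counts gave 0.0294, within a range from 0.0119 to 0.230 over all alternatives. Without that filter 9 named pseudogenes and 2.83% of all genes were called. Rpl10a-ps1 had 5.88, 7.06 and 6.15 CPM in wildtype and 10.4, 8.67 and 9.16 CPM in GalTKO, also without overlap. Its log2 fold change was 0.57 ± 0.15 (edgeR adjusted p = 0.112, DESeq2 adjusted p = 0.0427, highest of all alternatives 0.316), beside 0.29 for Rpl10a. Per 100 counts of the parent, Rpl38-ps2 had 10.5 counts in wildtype and 11.6 in GalTKO, and Rpl10a-ps1 had 1.79 and 2.20. Of these 7 pseudogenes with high levels, 5 (Rps23-ps1, Rps6-ps4, Rps16-ps2, Rpl38-ps2 and Rpl10a-ps1) have no mismatch to the parent transcript over the aligned bases. Reads within those bases cannot be told from reads of the parent by sequence. Gaps and unaligned ends are not counted as mismatches.

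The smallest unadjusted p values among uncalled pseudogenes also belonged to Rps19-ps3 and Rpl5-ps2. Rps19-ps3, with 14 differences from its parent, had 1.199, 1.31 and 1.299 CPM in wildtype and 2.21, 2.24 and 2.55 CPM in GalTKO. The groups did not overlap (log2 fold change 0.87 ± 0.24, edgeR adjusted p = 0.11), while Rps19 changed by 0.12. Rpl5-ps2, a copy of the gene for a 5S RNA binding protein, had 4, 5 and 4 counts in wildtype and 13, 12 and 10 in GalTKO (log2 fold change 1.47 ± 0.41, edgeR adjusted p = 0.122). Such counts allow little precision. Rpl31-ps21 had 0 counts in wildtype and 9, 9 and 4 in GalTKO, at least 7.71-fold higher when wildtype is given the floor of 3 counts. With no filter on low counts edgeR called it (adjusted p = 0.0119). Rpl7a-ps10 had 0 counts in wildtype and 3, 5 and 7 in GalTKO, at least 5.26-fold higher on that floor.

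Together the 300 pseudogenes held 223, 236 and 227 CPM in wildtype and 445, 421 and 439 CPM in GalTKO. The sums did not overlap, with an exact two-sided permutation p of 0.1. The mean difference was 206 CPM, and 91.7 CPM without Rps26-ps1. The 6 called pseudogenes went from 54.5 ± 2.16 CPM to 207 ± 3.32 CPM, and all others from 174 ± 5.20 CPM to 228 ± 9.19 CPM (SD, n = 3 each).

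Per kilobase of annotated exon, Rps26-ps1 had 265 CPM in GalTKO and Rps26 had 313, and in wildtype they had 10.4 and 380. The annotated exons span 449 bases for Rps26-ps1 and 1544 for Rps26 over all its transcripts, and by counts the copy was at 24.6% of its parent in GalTKO. Rpl15-ps2 had 7.33 CPM per kilobase in wildtype and Rpl15 had 150. Rps15a-ps7 had 76.7 CPM per kilobase in wildtype and Rps15a had 28.7, with annotated exon lengths of 392 and 6270 bases. Both comparisons depend on these lengths.

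Identity to the parent went with being counted at all. The 64 tested pseudogenes had a median identity of 99.3% to the parent transcript over aligned bases, the 235 aligned but not tested had 95.5%, and the 110 aligned with 0 counts had 91.6%. Of 65 pseudogenes at 99 to 100% identity, 41 were tested, and of 111 under 95% only 2 were. The 6 called had identities from 98.7 to 99.4%, with 2 to 8 mismatches. Of the 64 tested, 13 had no mismatch to the parent over the aligned bases. Of the 64 tested, 32 kept an open reading frame over the whole coding sequence, and 2 of the 6 called did, Rps26-ps1 and Rps15a-ps5. In all, 19 tested pseudogenes lay in introns of protein-coding genes, 7 of them on the same strand. An exon of another gene was overlapped by 5 tested pseudogenes, among them Rps23-ps1, with Gm5148 on the opposite strand.

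**Figure D5:**
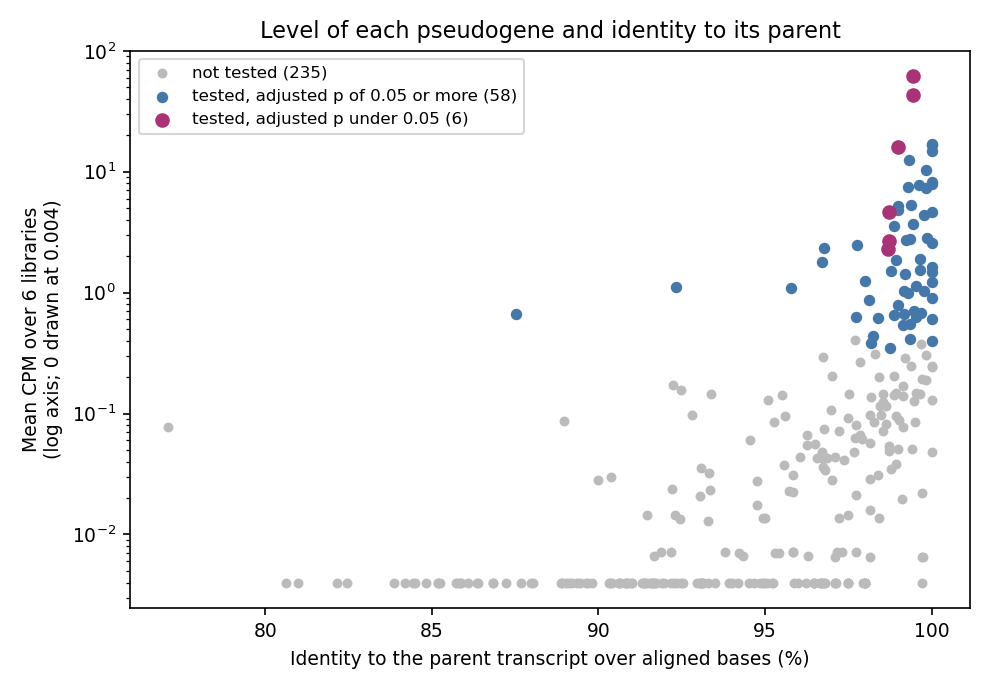
Each point is a named pseudogene, with its identity to the parent transcript in percent on the horizontal axis and its mean CPM over the 6 libraries on a log axis (0 is drawn at 0.004). Pseudogenes that were not tested are grey, tested ones blue and called ones purple. Levels are highest near 100% identity, and the called pseudogenes lie between 98.7 and 99.4%.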

How the data were processed

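Per the submitters' processing notes, the build was GRCm38 and the authors used STAR 2.7.6a, cutadapt 1.16, DESeq2 1.30.1 and featureCounts 1.6.3. The library kit was stranded, per the labels' protocols. The treatment of strand and of reads with several matching places was not given in these sources. Values of near-identical copies are therefore uncertain. The authors deposited raw counts per gene. Of 55487 identifiers, 260 did not match GENCODE M21 and held 0.00307% of counts.

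The members and lists were chosen with earlier results of these data known. Counts were fitted for all genes with edgeR 4.0.16 in R 4.3.3 (TMM scaling, filterByExpr with a minimum count of 10, robust quasi-likelihood test, genotype only, Benjamini-Hochberg adjustment over 16957 genes). The code was tested on simulated data. CPM used TMM-scaled library sizes. Exact permutation tests used scipy 1.17.1, and count ratios have exact 95% intervals. PCR duplicates cannot be told from separate molecules, so intervals and floors cover counting error only. Pseudogenes were aligned locally to parent transcripts with Biopython 1.88 (match 2, mismatch -3). Unnamed copies were pseudogenes of any annotated type with a blastn 2.17.0 hit of at least 85% identity over 70% of their length.

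Named were Galt, called pseudogenes with parent, overlapping gene and nearest tested neighbours, up to 8 uncalled pseudogenes of highest mean CPM, up to 4 with the smallest p, those with counts in a single genotype only, and those whose call an alternative gained or lost. Rps13-ps4, Rps13-ps2, the other copies of the Rps2, Rps15a and Rpl15 families, and Rpl19-ps3 were added after their values were seen. Alternatives were other scalings, filters, thresholds and tests (DESeq2 1.42.0, limma 3.58.1), a replicate block, and leaving out each library. Adding unnamed copies to the family sums was chosen after seeing the data. No sequence of chromosome 18 is shown.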

Additional observations from a re-analysis of the deposited data

How the results depend on the processing

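The 6 called pseudogenes kept their direction and their call in all 14 alternatives tried for each, and the largest adjusted p was 0.0230, for Rpl15-ps2. The number called was 6 under most alternatives, with 9 under DESeq2 and 9 with no filter on low counts, and it ran from 6 to 7 when a library was left out. All genes called rose from 433 to 1044 under DESeq2. Of the parents, 3 were called, against 6 with no filter on low counts, 8 under DESeq2 and 5 at an adjusted p under 0.1. With a library left out that count ran from 2 to 6, at 6 without GalTKO replicate 2. Over all genes, 742 were called without GalTKO replicate 2, against 263 and 322 without GalTKO replicates 1 and 3. Without a wildtype replicate, 165 to 202 genes were called. Pseudogenes that differed from their parent by at least 1 numbered 11, against 66 of 189 with no filter on low counts, and 7 of 43 with at least 1 CPM in 3 libraries. That count ran from 10 to 14 with a library left out. The summed level differed by 206 CPM, and by 91.7 CPM without Rps26-ps1, and by 201 to 212 CPM with a library left out. With the replicate block 6 pseudogenes and 3 parents were called. The replicate numbers did not pair the libraries: same-numbered wildtype and GalTKO libraries deviated from their group means with correlations of 0.09, -0.04 and 0.08. Fitting the block changed no call of a named pseudogene and moved the calls over all genes from 433 to 321. The 125 pseudogenes with counts that the filter left out had at most 56 counts over all libraries, and with no filter Rps15a-ps8 and Rpl31-ps21 among them were called.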

Other observations

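A further 1272 pseudogenes that match a ribosomal protein gene have no -ps symbol. They were taken from all annotated types of pseudogene. Of the 1272, 99 were tested and 5 were called (5.05%). Gm15772, a copy of Rpl26 with 99.5% identity, had 136, 138 and 130 CPM in wildtype and 2.32, 1.81 and 1.72 CPM in GalTKO (log2 fold change -6.09 ± 0.13, n = 3 per genotype). Rpl26 went the other way, from 18.3 to 20.6 CPM in wildtype to 279 to 369 CPM in GalTKO. Gm10020, a copy of Rpl15, had 12.6, 12.8 and 13.6 CPM in wildtype and 0.619, 0.0863 and 0.573 CPM in GalTKO. Gm11942, a copy of Rplp1, had 5.24, 5.33 and 6.11 CPM in wildtype and 0.426, 0.388 and 0.364 CPM in GalTKO, and Rplp1 was higher in GalTKO. In these 3 no GalTKO value reached the lowest wildtype value.

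Gm10036, a copy of Rpl11, and Gm6472, a copy of Rps7, were the 2 called higher in GalTKO. Gm10036 had 0.920, 1.40 and 0.780 CPM in wildtype and 19.9, 8.45 and 24.3 CPM in GalTKO, with an edgeR log2 fold change of 4.08 ± 0.46 (adjusted p = 0.0062). Gm6472 had 36.5, 29.3 and 31.8 CPM in wildtype and 58.5, 45.2 and 60.7 CPM in GalTKO, a smaller change of 0.75 ± 0.14 (edgeR adjusted p = 0.0306). Of all processed pseudogenes apart from the 300 with a Rpl or Rps -ps symbol, these 99 included, 542 were tested and 43 were called, which is 7.93%, beside 2.42% of protein-coding genes.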
